A study of Mus musculus with 4 samples.

Results

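*2610035D17Rik* is a long intergenic non-coding RNA gene on mouse chromosome 11, and it is described here together with 7 protein-coding genes of the same stretch of chromosome: *Sox9*, *Slc39a11*, *Sstr2*, *Cog1*, *Fam104a*, *D11Wsu47e* and *Cdc42ep4*. *2610035D17Rik* was chosen by its values, because it was nearly absent from both Foxa1/2cKO samples, and the other 7 were chosen because they lie near it. All 8 symbols were found, among 24421 listed genes. The cells were CD69+CD4+CD8+ (CD69+DP) thymocytes sorted from the thymus of adult C57BL/6 mice at 6 weeks of age. Control mice were Foxa1fl/flFoxa2fl/fl CD4Cre-, and Foxa1/2cKO mice were Foxa1fl/flFoxa2fl/fl CD4Cre+, so both groups carried the floxed alleles of *Foxa1* and *Foxa2* and differed by a Cre transgene under the *Cd4* promoter. Each group had 2 samples, and each sample came from different mice.

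DP thymocytes that receive a signal through the T-cell receptor upregulate CD69 and enter positive selection, in which they are chosen to survive as CD4 or CD8 single-positive cells. Foxa1 and Foxa2 are forkhead transcription factors that bind DNA in closed chromatin and open it for other factors. Long non-coding RNAs are transcribed and spliced like messenger RNAs but are not translated, many are made in a few cell types, and some act on genes close to them on the chromosome. *Sox9* encodes a transcription factor of cartilage and testis development and lies in a large region with few other genes.

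On mm10, *2610035D17Rik* (ENSMUSG00000087259.7) is at chr11:113043895-113201838 on the minus strand, so that its transcription runs towards *Sox9* (chr11:112782224-112787760), from which it is separated by 256134 bases. On the other side, *4732490B19Rik*, a second non-coding gene on the minus strand, ends 1476 bases beyond it, with its start site 7.83 kb from that of *2610035D17Rik*, and *Slc39a11* (chr11:113244853-113650079) ends 43014 bases beyond it. GENCODE M21 gives 4 transcripts of *2610035D17Rik* with 2 to 4 exons. Their exons fall in 5 blocks, and the block of 1268 bases at the 3' end belongs to all 4 transcripts. Of these transcripts, 2 start within the block of 550 bases at the upper end of the gene (chr11:113201289-113201838) and the other 2 start at an internal exon (chr11:113172953-113173077). The FPKM of the gene were computed over 1848 bases of exon, and they are given per gene, so the start sites cannot be told apart in these values.

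The promoter window of *2610035D17Rik* is printed because the gene was nearly absent from Foxa1/2cKO and the deleted factors bind forkhead words. It is from RefSeq on GRCm38.p6 (the assembly of mm10) and covers the upper start of the gene. The internal start was not searched. The window spans 250 bases before the start site and 50 bases from it on, at chr11:113201789-113202088 on the minus strand. The capitals mark the RUNX letters TGTGGT and the TATA letters TATAAA.

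2610035D17Rik: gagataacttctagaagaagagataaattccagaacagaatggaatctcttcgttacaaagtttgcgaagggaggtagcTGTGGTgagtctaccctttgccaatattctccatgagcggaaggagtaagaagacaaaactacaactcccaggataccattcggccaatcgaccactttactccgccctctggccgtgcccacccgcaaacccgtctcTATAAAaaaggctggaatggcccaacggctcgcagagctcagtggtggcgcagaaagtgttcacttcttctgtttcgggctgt

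The window was searched on both strands for 4 forkhead words, of which the first was TGTTTAC, the next one being TGTTTGC, while the remaining pair consisted of TATTTAC and its close variant TATTTGC. The other words searched were TGTGGT for RUNX factors, then CAGCTG as an E-box, then CCGGAAG for ETS factors and finally TATAAA as a TATA box. The RUNX word was found at -171 and the TATA word at -33 relative to the start site, both on the strand of the gene, and the window held none of the 4 forkhead words. Among the 32851 promoter windows of the same length, 16.8% held the RUNX word, 13.6% the TATA word and 13.5% held at least 1 forkhead word. The GC content of the window was 49.3%, with a median of 52.7% over all windows.

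RefSeq windows matched 7 of the 8 genes, and that of *Sox9* was not in the table used. Of the windows matched, 1 held a forkhead word. This was the second of the 2 start sites of *Cdc42ep4*, at chr11:113751111-113751410 on the minus strand, where TATTTGC, a word that 2.76% of all windows hold, lies on the opposite strand at +39 and is seen in capitals as its reverse complement.

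Cdc42ep4: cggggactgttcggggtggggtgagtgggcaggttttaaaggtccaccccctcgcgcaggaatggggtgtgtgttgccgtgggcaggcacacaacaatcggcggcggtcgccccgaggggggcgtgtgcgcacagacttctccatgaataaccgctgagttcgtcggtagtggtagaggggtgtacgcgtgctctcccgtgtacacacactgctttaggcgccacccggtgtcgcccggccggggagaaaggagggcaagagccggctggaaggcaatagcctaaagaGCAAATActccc

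A match of these letters is a description of the sequence and not a binding site. Letters that are absent from 300 bases say nothing of binding elsewhere.

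Between 10396878 and 14482757 reads per sample were recovered on the listed genes. *Foxa1* and *Foxa2* were at 0 in every sample of either group, so the deletion could not be checked by their level in these values. By qRT-PCR the study detected both genes in control CD4 and CD8 single-positive thymocytes, and neither gene in those of Foxa1/2cKO. It also detected both in wild-type DP cells. The 8 markers of CD69+DP thymocytes were all present, with a summed FPKM of 2656 to 2702 in control and of 2734 to 3454 in Foxa1/2cKO. Of the other cell types, the 4 B cell markers summed to 48.7 to 73.1 FPKM in control and 52.2 to 99.4 in Foxa1/2cKO, and the 4 myeloid markers to 11.6 to 18.2 and 9.08 to 19. The 3 erythroid markers, with *Hbb-bs* at 0 in every sample, summed to 0.608 to 1.12 and 1.01 to 2.67. The 4 thymic epithelial markers summed to 3.13 to 3.18 in control and 3.65 to 4.09 in Foxa1/2cKO, and 4 markers of cartilage, a tissue that expresses *Sox9*, to 0.435 to 0.441 and 0.600 to 0.823, with *Col9a1* at 0. The sums of these last 2 lists, and that of the CD69+DP markers, were higher in both Foxa1/2cKO samples than in both controls. In each of these lists 2 genes had groups that did not overlap, a pattern found in 36.7% of all genes tested. Of the thymic epithelial markers 1 passed the filter on low values (1 FPKM in 2 or more samples), and of the cartilage markers 0. Their part in the results was not tested. Foxa1/2cKO 2 stood apart: over 10776 genes the SD of the log2 difference was 0.198 between the controls, 0.239 and 0.259 between Foxa1/2cKO 1 and the controls, and 0.368 to 0.405 between Foxa1/2cKO 2 and the other 3 samples. The log2 differences of *Cdc42ep4*, *Slc39a11*, *Cog1* and *Fam104a* are therefore also given without it. Other results include it unless stated.

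*2610035D17Rik* was present in the controls at 10.3 and 10.5 FPKM (fragments per kilobase of exon, divided by a total that the authors set for each sample) and in Foxa1/2cKO at 0.0501 and 0.0488 FPKM. The reads behind them were 286 and 264 in control against 1 in each Foxa1/2cKO sample. The groups were far apart and each pair of replicates was close, the controls differing by 0.023 on the log2 scale. The gene was chosen as nearly absent from both Foxa1/2cKO samples, so nothing is read from their likeness. Foxa1/2cKO averaged 0.0495 ± 0.000950 FPKM (SD, n = 2), which is 0.474% of the control average of 10.4 ± 0.129 (SD, n = 2). The small SD in Foxa1/2cKO is that of 2 single reads. The ratio of control to Foxa1/2cKO was 211, with an exact binomial 95% interval of 58.1 to 1746 from the reads. The interval covers counting error only and makes no allowance for the choice of the gene by these values. On log2(FPKM + 1) the difference was -3.45, and it was -7.17 with limma-voom on the recovered reads, because adding 1 to each FPKM shrinks the change of a gene that is near 0. The gene was chosen by this difference, which is given as a description with no test.

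In sorted bulk cells, a loss of the cells that hold a transcript and a loss of transcript from each cell cannot be told apart.

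**Figure D1:**
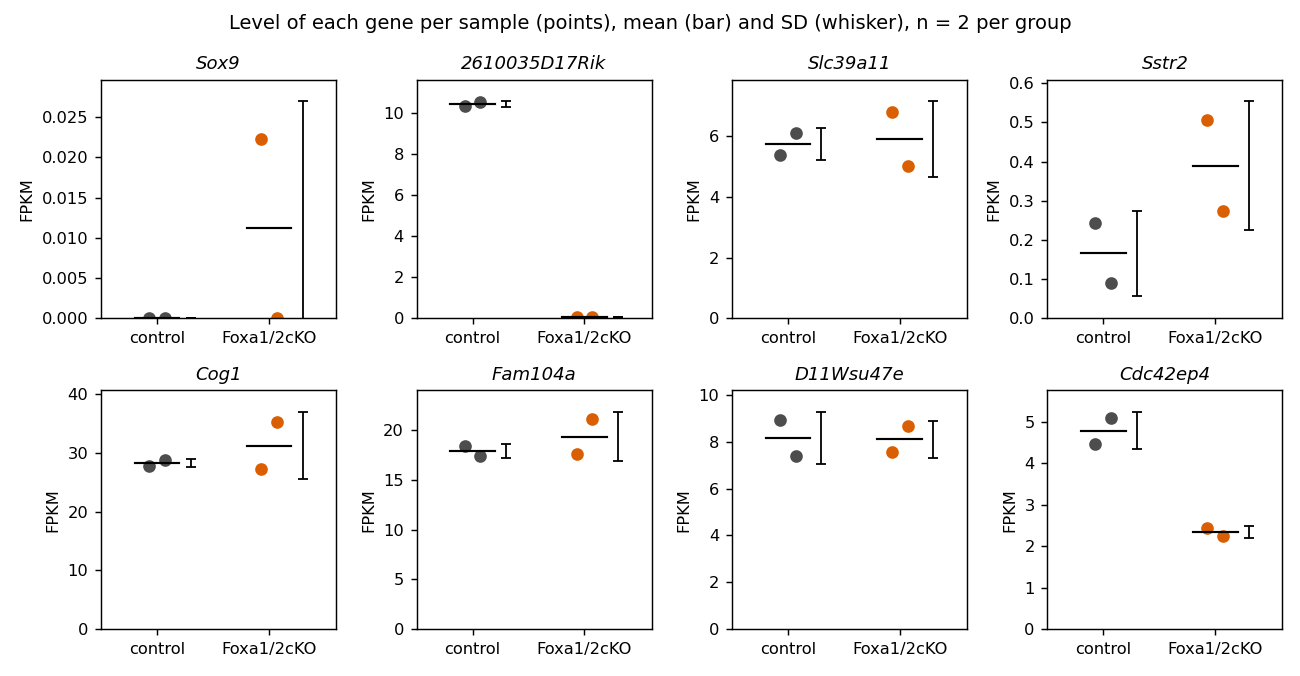
FPKM of the 8 genes (y axis, from 0, a different scale in each panel) in the 2 control samples (grey) and the 2 Foxa1/2cKO samples (orange), with the mean as a bar and the SD as a whisker beside it. *2610035D17Rik* was at 10.3 and 10.5 FPKM in control and near 0 in Foxa1/2cKO, and *Cdc42ep4* was at 4.47 and 5.11 against 2.44 and 2.24 FPKM, while *Slc39a11*, *Cog1*, *Fam104a* and *D11Wsu47e* overlapped between groups.

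FPKM are per length, so levels can be compared between genes. In control the order of the 8 genes by mean FPKM was *Cog1* (28.3), *Fam104a* (17.9), *2610035D17Rik* (10.4), *D11Wsu47e* (8.16), *Slc39a11* (5.76), *Cdc42ep4* (4.79), *Sstr2* (0.166) and *Sox9* (0). No 2 neighbours in this order overlapped in control, but the lower *Slc39a11* sample (5.38) and the higher *Cdc42ep4* sample (5.11) were close. In Foxa1/2cKO *2610035D17Rik* was 7th of the 8, below *Sstr2*, and the order of the others was the same. Among the 826 annotated long non-coding genes that were above 0, *2610035D17Rik* ranked 55 by mean FPKM in control and 628 in Foxa1/2cKO. The median of these genes in control was 0.291 FPKM, so it was one of the more abundant long non-coding transcripts of control CD69+DP cells.

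Of the other 271 long non-coding genes tested, 50 were lower in both Foxa1/2cKO samples than in both controls (18.5%) and 43 were higher (15.9%). Over all 10776 genes tested these shares were 17.8% and 18.9%, together 36.7%. The median log2 difference of the 271 was -0.0085. After *2610035D17Rik* the lowest of them was *A430090L17Rik*, at 1.41 and 1.24 FPKM in control and 0.678 and 0.220 in Foxa1/2cKO, a log2 difference of -0.70, and the highest was *4632427E13Rik*, at 2.00 and 1.43 FPKM against 2.63 and 4.58, a log2 difference of 0.74.

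A level of 1 FPKM or more in both controls with no more than 3 reads in either Foxa1/2cKO sample was found for 56 genes. Of the 55 other than *2610035D17Rik*, 53 were small RNA genes, such as small nucleolar RNAs and microRNAs, and the highest had 13 reads in a control. It was *Snord12*, a small nucleolar RNA gene (13 and 11 reads in control against 2 and 1). After it came *Snord57* (6 and 9 reads against 2 and 3), *Snora75* (7 and 5 against 3 and 1), *Mir5121* (5 and 4 against 2 and 3) and *Snord95* (2 and 6 against 1 and 3). *2610035D17Rik* was the 1 gene of the 56 with at least 20 reads in both controls, a minimum chosen after the values were seen. The reverse pattern, with at most 3 reads in each control, was found for 35 genes, and none of them had more than 6 reads in a Foxa1/2cKO sample. The 5 highest of these by FPKM were *Mir6991*, *Mir3960*, *Snord37*, *Mir7087* and *Mir7037*, with 1 to 5 reads in a Foxa1/2cKO sample.

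**Figure D2:**
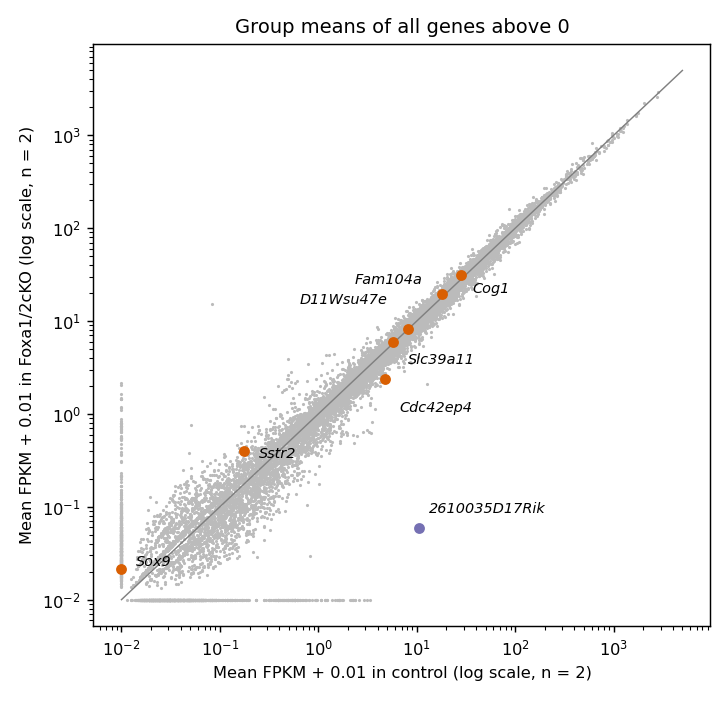
Mean FPKM + 0.01 of every gene above 0 in control (x axis, log scale, n = 2) and Foxa1/2cKO (y axis, log scale, n = 2), with the diagonal of equal means as a line, *2610035D17Rik* in purple and the 7 neighbours in orange. *2610035D17Rik* lies far below the diagonal, at 10.4 and 0.0495 FPKM, *Cdc42ep4* lies below it, at 4.79 and 2.34 FPKM, and the other neighbours tested lie near it.

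By the distance between profiles of log2(FPKM + 1) over the 4 samples, each centred on its mean, the 5 genes most like *2610035D17Rik* were *Snord12* (distance 1.35), *Snord35b* (1.45), *Mir6958* (1.49), *Mir6946* (1.58) and *Snord19* (1.60). All 5 rest on few reads, and *Snord19* on 1 read in each control. Among tested genes with at least 100 reads in both controls, a minimum chosen after the values were seen, the nearest was *Usp44*, which encodes a deubiquitinase (distance 2.14), followed by *Erdr1* (2.45), *Ptcra*, the pre-T-cell receptor alpha chain (2.47), *Mmp14*, a membrane matrix metalloproteinase (2.49), and *H1f0*, a linker histone (2.53). *Usp44* was at 3.71 and 3.22 FPKM in control and 0.983 and 0.615 in Foxa1/2cKO, so that 23% of its control level remained, against 0.474% for *2610035D17Rik*.

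The 7 neighbours were chosen by position, so their differences were tested. The filter on low values (1 FPKM in 2 or more samples) passed 5 of the 7, which were tested, and left out *Sox9* and *Sstr2*. P-values are from limma on log2(FPKM + 1) and adjusted by the Benjamini-Hochberg method over all 10776 genes tested. None of the 5 passed an adjusted p of 0.05, and 1 of the 5, *Cdc42ep4*, had an unadjusted p under 0.05 and groups that did not overlap. Over all genes tested 1 gene passed the adjusted threshold (0.00928%), and since that gene was *2610035D17Rik*, whose values chose it, nothing is read from this. With DESeq2 and re-estimated p-values the study called many more genes in the same samples, *Mmp14* and *H1f0* among them. The count of 1 therefore describes the limma fit used here. Before adjustment 490 genes had a p under 0.05 (4.55%), and 17.8% of all genes were lower in both Foxa1/2cKO samples, as *Cdc42ep4* was. With 2 samples a group, the smallest two-sided p of an exact permutation test is 0.333.

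*Cdc42ep4*, which encodes an effector that binds the GTP-bound form of the small GTPase CDC42, is at chr11:113726850-113751881 on the minus strand, with its start site 550 kb from that of *2610035D17Rik*. It was at 4.47 and 5.11 FPKM in control and at 2.44 and 2.24 in Foxa1/2cKO, from 226 and 234 reads and from 89 and 84. Both Foxa1/2cKO samples lay below both controls. The Foxa1/2cKO mean of 2.34 ± 0.141 FPKM (SD, n = 2) was 48.9% of the control mean of 4.79 ± 0.448 (SD, n = 2). On log2(FPKM + 1) the difference was -0.79 (standard error 0.14, 95% interval -1.15 to -0.43, unadjusted p = 0.00270, adjusted p = 0.863 from limma). It was -0.75 without Foxa1/2cKO 2 and -0.83 without Foxa1/2cKO 1.

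*Slc39a11*, which encodes the zinc transporter ZIP11, is the nearest protein-coding gene beyond *2610035D17Rik*. It was at 5.38 and 6.12 FPKM in control and at 6.79 and 5.03 in Foxa1/2cKO. The Foxa1/2cKO samples lay on either side of the controls. The log2 difference was 0.023 (standard error 0.17, 95% interval -0.42 to 0.46, adjusted p = 0.985 from limma), and it was 0.21 without Foxa1/2cKO 2 and -0.16 without Foxa1/2cKO 1.

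*Cog1* encodes a subunit of the conserved oligomeric Golgi complex, which tethers vesicles in retrograde traffic through the Golgi. It was at 27.8 and 28.8 FPKM in control and at 27.2 and 35.3 in Foxa1/2cKO, of which the second alone lay above the controls. The log2 difference was 0.13 (standard error 0.14, 95% interval -0.25 to 0.51, adjusted p = 0.876 from limma). Its sign depended on Foxa1/2cKO 2, without which it was -0.054, and without Foxa1/2cKO 1 it was 0.31. A fit without Foxa1/2cKO 1 takes its spread from the controls and assumes that the lone Foxa1/2cKO sample varies like them. *Cog1* (chr11:113649169-113667054, plus strand) begins within the span of *Slc39a11*, with 911 bases in common.

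*Fam104a*, which encodes a nuclear cofactor of the ATPase VCP, was at 18.4 and 17.4 FPKM in control and at 17.6 and 21.1 in Foxa1/2cKO. The groups overlapped, with a log2 difference of 0.10 (standard error 0.12, 95% interval -0.21 to 0.42, adjusted p = 0.881 from limma), which was -0.022 without Foxa1/2cKO 2. *Cog1* and *Fam104a* (chr11:113661319-113684155, minus strand) share 1116 exon bases on opposite strands, which are 22.4% of the exon bases of *Cog1* and 42.6% of those of *Fam104a*, and reads of that stretch cannot be told apart where strand is not used in counting. The strand setting of the counting per gene is not given in the sources used here, and the study's counting per exon did not use strand.

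*D11Wsu47e*, a protein-coding gene (chr11:113684412-113694647, plus strand) whose start lies head to head with that of *Fam104a*, was at 8.94 and 7.38 FPKM in control and at 7.55 and 8.66 in Foxa1/2cKO. Both Foxa1/2cKO samples lay between the controls, and the log2 difference was -0.0063 (standard error 0.14, 95% interval -0.37 to 0.36, adjusted p = 0.995 from limma).

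*Sstr2*, a G protein-coupled receptor for the peptide hormone somatostatin, was at 0.243 and 0.0893 FPKM in control and at 0.506 and 0.273 in Foxa1/2cKO. These values are 6 and 2 reads against 9 and 5, and although the groups did not overlap, the ratio of Foxa1/2cKO to control was 2.28 with a 95% interval of 0.893 to 6.28 by counting error alone. *Sox9* was listed at 0 in both controls and in Foxa1/2cKO 2 and had 1 read in Foxa1/2cKO 1 (0.0223 FPKM). A count of 0 allows up to 3 reads, which for *Sox9* are 0.0483 and 0.0533 FPKM in the controls and 0.0652 in Foxa1/2cKO 2. At this depth no difference of *Sox9* was detectable.

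**Figure D3:**
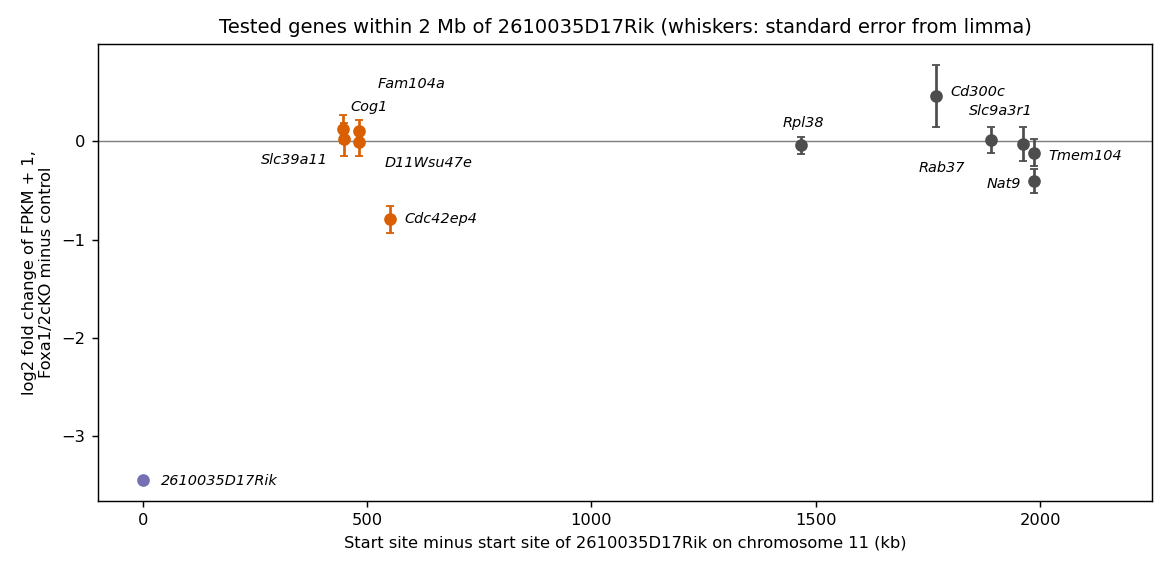
Log2 fold change of FPKM + 1 (y axis, Foxa1/2cKO minus control) of *2610035D17Rik* and the 11 tested genes that start within 2 Mb of it, against the distance of their start sites from its own in kb (x axis). Whiskers are standard errors from limma, and *2610035D17Rik* (purple) has none because it was chosen by its values and is given as a description. *Cdc42ep4* at -0.79 and *Nat9* at -0.40 lie below 0, and the other genes lie within or close to their standard error of 0, apart from *Cd300c* at 0.46.

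Every listed gene that starts within 2 Mb of *2610035D17Rik* was then taken, 35 in all. Of these, 12 were at 0 in every sample, another 12 were above 0 but below the filter, and 11 were tested. The 11 were the 5 neighbours above and *Rpl38*, *Cd300c*, *Rab37*, *Slc9a3r1*, *Tmem104* and *Nat9*. No tested gene lay on the *Sox9* side, where *Sox9* was accompanied by 3 genes at 0, and *4732490B19Rik*, the closest gene to *2610035D17Rik*, had 1 read in 1 sample. By outermost annotated start sites, the nearest genes above the filter were *Cog1* and *Slc39a11*, 447 and 448 kb from the start site of *2610035D17Rik*. A second RefSeq promoter window of *Slc39a11*, at chr11:113565766-113566065 on the minus strand, lies nearer.

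Of the 11 tested genes, 0 had an adjusted p under 0.05 from limma and 2 an unadjusted p under 0.05. Both were lower in both Foxa1/2cKO samples, which makes 18.2% lower against 17.8% of all genes, and none was higher. The median log2 difference was -0.0063 for the 11 and 0.0051 for all genes tested. *Nat9*, an N-acetyltransferase gene, was at 4.85 and 4.95 FPKM in control and at 3.28 and 3.67 in Foxa1/2cKO, a log2 difference of -0.40 (standard error 0.12, 95% interval -0.73 to -0.076, adjusted p = 0.863 from limma). It rests on 20 to 41 reads a sample.

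*Rpl38*, a ribosomal protein gene, was at 244 and 252 FPKM in control and 248 and 235 in Foxa1/2cKO, a log2 difference of -0.038. *Slc9a3r1*, which encodes a scaffold protein under the plasma membrane, was at 163 and 162 FPKM against 135 and 189, and *Rab37*, a small GTPase gene, at 23.1 and 24.3 against 21.4 and 26.9. For *Slc9a3r1* and *Rab37* the controls fell between the Foxa1/2cKO samples. *Tmem104* was at 8.46 and 8.24 FPKM against 8.58 and 6.77, and *Cd300c*, a gene of the CD300 family of leukocyte surface receptors, at 1.45 and 0.427 against 1.34 and 1.83 from 4 to 15 reads. The log2 difference of *Slc9a3r1* was -0.027 with all samples and 0.215 without Foxa1/2cKO 1.

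Within 1 Mb the tested genes were the 5 neighbours. Within 5 Mb 81 genes were tested, of which 0 had an adjusted p under 0.05 and 3 an unadjusted p under 0.05, the third being *Slc16a6*, a gene of the monocarboxylate transporter family, with a log2 difference of -0.53. Of the 81, 18 were lower in both Foxa1/2cKO samples (22.2%) and 2 were higher (2.47%), *Llgl2* and *Ten1*. Over the 923 tested genes of chromosome 11 without *2610035D17Rik* these shares were 20.4% and 15.3%. The median log2 difference of the 81 was -0.039, and that of chromosome 11 -0.013. Scaling to the sum of recovered reads was added after the values were seen. With it, 25 of the 81 were lower (30.9%) and 2 higher (2.47%). Of the chromosome 11 genes 26.4% were then lower and 12.2% higher, and of all genes 22% and 15.8%.

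For 6 of the neighbours a list of related genes was taken, with the ZnT zinc exporters as a further list. The list of VCP cofactors is a selection. The 7 lists held 52 listed genes, of which 34 were tested and 0 had an adjusted p under 0.05 from limma. The groups did not overlap for 3 lower and 11 higher of the 34 (8.82% and 32.4%), against 17.8% and 18.9% of all genes. Scaled to the sum of recovered reads, 5 were lower and 8 higher (14.7% and 23.5%), against 22% and 15.8% of all genes. The median log2 difference was 0.046. An unadjusted p under 0.05 was found for *Cdc42ep4*, *Cog5* and *Cdc42ep3*.

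All 8 subunits of the conserved oligomeric Golgi complex were tested, and their median log2 difference was 0.089. *Cog5* was at 16.8 and 15.4 FPKM in control and at 21.9 and 25.4 in Foxa1/2cKO, with a log2 difference of 0.52 (standard error 0.11, unadjusted p = 0.00688, adjusted p = 0.863 from limma). *Cog6* (log2 difference 0.18) and *Cog8* (0.20) were also higher in both Foxa1/2cKO samples, and *Cog7* was lower, at 7.37 and 7.79 FPKM against 6.42 and 5.69 (-0.28). *Cog1*, *Cog2*, *Cog3* and *Cog4* overlapped between groups, so subunits of 1 complex lay on both sides of 0.

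Of the 14 ZIP zinc importers, to which *Slc39a11* belongs, 11 were tested, and the groups overlapped in all 11, with log2 differences from -0.17 (*Slc39a8*) to 0.066 (*Slc39a6*). *Slc39a7*, the highest of the family, was at 54.2 and 54.5 FPKM in control and at 50.2 and 60.7 in Foxa1/2cKO. Of the 10 ZnT zinc exporters, which move zinc the other way, 6 were tested and 4 were higher in both Foxa1/2cKO samples (*Slc30a1*, *Slc30a4*, *Slc30a7* and *Slc30a9*), against 18.9% of all genes, the largest being *Slc30a4* at 9.20 and 8.63 FPKM against 10.3 and 12.6 (log2 difference 0.32, adjusted p = 0.863 from limma). Scaled to all recovered reads, 2 of the 6 were higher, against 15.8% of all genes, and 2 of the 11 ZIP genes were lower, against 22% of all genes.

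*Cdc42* and its 5 effectors of this family differed among themselves. *Cdc42* was at 123 and 125 FPKM in control and at 133 and 128 in Foxa1/2cKO, a log2 difference of 0.072. *Cdc42ep3* was at 9.92 and 9.36 FPKM in control and at 11.7 and 13.0 in Foxa1/2cKO, a log2 difference of 0.33 (standard error 0.10, unadjusted p = 0.0277, adjusted p = 0.863 from limma), opposite in sign to *Cdc42ep4*. *Cdc42ep1*, *Cdc42ep2* and *Cdc42ep5* had at most 3 reads in a sample. *Cdc42ep4* and *Cdc42ep3* were thus the effectors of this family expressed above the filter.

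*Vcp*, an ATPase that extracts proteins for degradation, and 5 listed cofactors including *Fam104a* were tested. *Nsfl1c* was lower in both Foxa1/2cKO samples (log2 difference -0.16), *Vcp* (0.043) and *Faf1* (0.10) were higher, and *Nploc4*, *Ubxn1* and *Fam104a* overlapped. *Ufd1* was not found under that symbol. Of the other 4 somatostatin receptors, *Sstr1*, *Sstr4* and *Sstr5* were at 0 in every sample and *Sstr3* had at most 1 read. Of the 2 factors most closely related to *Sox9*, *Sox10* was at 0 and *Sox8* had at most 1 read.

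**Figure D4:**
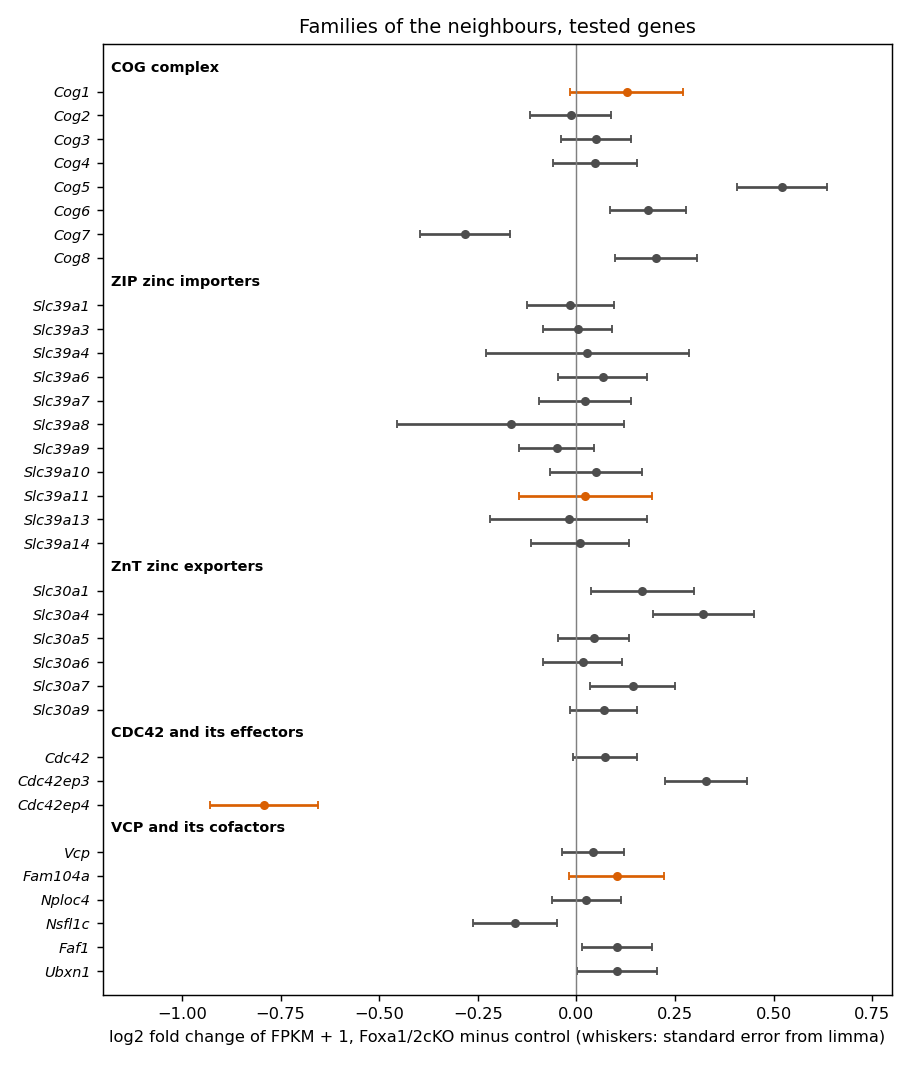
Log2 fold change of FPKM + 1 (x axis, Foxa1/2cKO minus control) of the 34 tested genes of the lists of genes related to the neighbours, with standard errors from limma as whiskers and the neighbours in orange. *Cdc42ep4* at -0.79 lies farthest from 0, *Cog5* follows at 0.52, and the 11 ZIP genes lie between -0.17 and 0.066.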

How the data were processed

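RNA of CD69+DP thymocytes from 2 control and 2 Foxa1/2cKO samples was sequenced. The authors aligned reads to mm10 with RefSeq genes, counted them with HTSeq and tested them with DESeq2. They then re-estimated the null variance and the p-values with fdrtool, which was not done here. TopHat, Picard and DESeq2 are named in the submitters' processing notes. The deposited values are FPKM for 24421 genes. The tool that made them is not given in the sources used here.

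The steps between FPKM values gave whole reads for 100% of the 16069 genes above 0, with a tolerance of 0.01 reads. Limma 3.58.1 in R 4.3.3 was fitted on log2(FPKM + 1), with a mean-variance trend, to the 10776 genes that reached 1 FPKM in 2 or more samples, with 2 residual and 2.69 prior degrees of freedom and Benjamini-Hochberg adjustment at 0.05. The pseudocount understates the change of low genes. The fit was tested on simulated data with an equal spread in both groups. In these data the SD of the log2 difference was 0.405 between the Foxa1/2cKO samples and 0.198 between the controls. The simulation does not cover such unequal spread. The totals by which FPKM had been divided, found from the steps, were 10796528 to 14968316 per sample. They were not the read totals: in Foxa1/2cKO 2 the divisor (11093927) was below the reads recovered on listed genes (11262410), and in the other samples above them. Limits of 3 reads and exact 95% intervals of reads, taken over these totals, cover counting error only. Genes were placed by symbol in GENCODE M21 (GRCm38, the assembly of mm10), with a position for 99.4%. Promoter windows are from RefSeq on GRCm38.p6. Python 3.11.15 (scipy 1.17.1, pandas 2.3.3, numpy 2.4.6, matplotlib 3.10.9) made the other tables and the plots.

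The members and lists were chosen with earlier results of these data known. The genes named are the 8 members, tested genes within 2 Mb, the members' families, *Foxa1* and *Foxa2*, the 5 genes nearest in profile to *2610035D17Rik*, and up to 5 genes in each direction at 1 FPKM or more in both samples of a group and at most 3 reads in each sample of the other. Chosen after their values were seen were the 5 genes nearest in profile among those with at least 100 reads in both controls, *A430090L17Rik*, *4632427E13Rik*, *Slc16a6*, *Llgl2*, *Ten1* and *BC018473*. The alternatives were a pseudocount of 0.1, no filter, upper-quartile scaling, a replicate block, limma-voom on recovered reads, windows of 1 and 5 Mb, and leaving out each sample.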

Additional observations from a re-analysis of the deposited data

How the results depend on the processing

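The log2 difference of *2610035D17Rik* was -6.14 with a pseudocount of 0.1 and -7.17 with limma-voom on recovered reads. Leaving out single samples gave -3.46 to -3.43. The gene was chosen as near 0 in both Foxa1/2cKO samples, so leaving out either of them could change little. The number of genes called over all genes tested fell from 1 to 0 with a pseudocount of 0.1, with no filter on low values, with upper-quartile scaling and with limma-voom on recovered reads, and was 0 without either control, 19 without Foxa1/2cKO 2 and 2559 without Foxa1/2cKO 1. The 1 gene was *2610035D17Rik*, which was chosen by its values. Without Foxa1/2cKO 1 the group holds 1 sample, so the spread comes from the controls alone. The cause of the differing counts was not tested. Leaving out single samples gave 0 to 2 calls among the neighbours, 0 to 3 in the 2 Mb window and 0 to 7 in the families, and in each case the calls came without Foxa1/2cKO 1.

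*Cdc42ep4* was lower in Foxa1/2cKO under all 9 alternatives, from -1.06 with limma-voom to -0.71 without control 2. With all samples kept, its adjusted p lay between 0.795 (limma-voom) and 0.998 (limma with the replicate block). The signs of neighbours near 0 turned: *Slc39a11* was -0.013 with limma-voom. Leaving out single samples, *Slc39a11* lay between -0.16 and 0.21, *Cog1* between -0.054 (without Foxa1/2cKO 2) and 0.31, *Fam104a* between -0.022 (without Foxa1/2cKO 2) and 0.23, and *D11Wsu47e* between -0.13 and 0.12.

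The labels number replicates 1 and 2 in each group without saying that a number marks a shared litter or day. In the study the controls were Cre-negative littermates and a sort took in 2 mice per genotype. It does not tie replicate numbers to a litter or a sort. The deviations of samples with the same number had a correlation of -0.059. With the replicate number as a block, the 1 gene called was *2610035D17Rik* (log2 difference -3.45), which was chosen by its values. No neighbour, window gene or family gene was called (0 each). Depth limits *Sox9*, with 0 or 1 read a sample, and *Sstr2*, with 2 to 9.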

Other observations

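*BC018473*, an antisense gene on chromosome 11 (chr11:116752167-116759373), was at 30.0 FPKM in Foxa1/2cKO 1, from 1058 reads, and at 0.138 in the other Foxa1/2cKO sample, from 5 reads. The controls were at 0.102 and 0.0451 FPKM, with 5 and 2 reads. It was singled out after its values were seen, as the point far above the diagonal in the plot of group means, and it starts 3550 kb from *2610035D17Rik*. It did not pass the filter and was not tested.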
